A study of Mus musculus with 6 samples.

Results

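The immediate early and ERK response genes described here are Egr1, Egr2, Egr3, Nr4a1, Fos, Junb and Dusp6. They are 7 of the 22414 probe sets in the deposited table, and were chosen by gene name, 1 probe set per gene. Their levels come from Beko, a leukaemia line of the mouse T lineage, whose total RNA was put on 6 Affymetrix arrays, 1 per condition. Uninfected cells were cultured for 24 h with DMSO or with 10 μM DAPT, a γ-secretase inhibitor that stops the release of active Notch. Cells infected with a DNMAML-ER construct and selected were cultured for 48 h with ethanol or with 0.75 μg/mL of a hydroxytamoxifen, written OHT because the labels and the design text give different positions for its hydroxyl group. DNMAML is a dominant-negative form of the Notch coactivator Mastermind, fused here to a part of the oestrogen receptor, which makes it inducible by OHT. Cells infected with a Notch1-ER construct, which carries Notch1 fused in the same way, received the same 2 treatments for the same time. Both arrays of a fusion pair carry the fusion, and the labels do not say whether a line was 1 clone or which promoter drove the construct. The series was set up to follow the transcriptional response to Notch1 in these cells.

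Immediate early genes are transcribed within minutes of a growth factor, antigen receptor or stress signal, from promoters whose transcription factors are already bound and await phosphorylation. In T cells and thymocytes the Ras and ERK pathway downstream of the antigen receptor is one of their main inducers. Egr1, Egr2 and Egr3 are zinc finger transcription factors, Nr4a1 (Nur77) is an orphan nuclear receptor, and Fos and Junb are subunits of the AP-1 transcription factor. Dusp6 is a cytoplasmic phosphatase that removes phosphate from ERK and is itself induced by ERK signalling, so it acts as negative feedback. The cells were collected a day or more after treatment began, so the arrays do not show a first burst at its start. Signals at harvest, such as handling stress, were not checked here.

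None of the 7 genes differed 2-fold between treated and vehicle cells in any of the 3 pairs, where 1.63% of the 12150 genes tested did so with DAPT, 0.79% with DNMAML-ER and 0.527% with Notch1-ER. At a smaller size, 1.5-fold, 1 of the 7 was higher with DAPT (Dusp6), 1 with DNMAML-ER (Nr4a1) and 2 with Notch1-ER (Dusp6 and Fos), beside 5.12%, 2.41% and 1.51% of all genes. Nr4a1 passed the floor on low levels only on the DNMAML-ER OHT array, where it was highest, so its count is only a description. Fos was also under the floor with vehicle in the Notch1-ER pair and at the edge of the size. No member was lower by 1.5-fold, beside 2.88%, 1.32% and 0.782% of all genes. Dusp6 was also the one member whose 3 treated arrays all lay above its 3 vehicle arrays, as did 5.15% of genes, although by design DAPT lowers Notch activity and Notch1-ER raises it. Each condition has 1 array, so these differences have no replicate behind them.

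The promoters of 3 members are shown because these genes gave every difference past 1.5-fold. RefSeq (GRCm38.p6) gives windows for 5 of the 7 members by symbol. Each sequence is the stretch of 250 bases before the annotated start, 5′ to 3′ on the gene's strand, with capitals marking each copy of TGACG, or CGTCA for the other strand. These 5 letters are the core of the cAMP response element, a site bound by CREB and ATF factors.
Nr4a1, chr15:101266596-101266845, + strand: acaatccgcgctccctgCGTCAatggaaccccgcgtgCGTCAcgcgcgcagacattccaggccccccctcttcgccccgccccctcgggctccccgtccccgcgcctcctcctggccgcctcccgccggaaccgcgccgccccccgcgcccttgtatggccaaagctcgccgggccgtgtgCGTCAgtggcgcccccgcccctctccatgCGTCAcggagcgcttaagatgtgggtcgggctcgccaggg
Fos, chr12:85473640-85473889, + strand: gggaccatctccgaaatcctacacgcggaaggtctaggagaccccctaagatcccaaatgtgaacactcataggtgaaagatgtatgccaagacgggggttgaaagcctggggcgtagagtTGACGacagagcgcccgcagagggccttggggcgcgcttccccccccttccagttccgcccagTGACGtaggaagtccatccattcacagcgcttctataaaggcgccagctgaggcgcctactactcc
Dusp6, chr10:99262981-99263230, + strand: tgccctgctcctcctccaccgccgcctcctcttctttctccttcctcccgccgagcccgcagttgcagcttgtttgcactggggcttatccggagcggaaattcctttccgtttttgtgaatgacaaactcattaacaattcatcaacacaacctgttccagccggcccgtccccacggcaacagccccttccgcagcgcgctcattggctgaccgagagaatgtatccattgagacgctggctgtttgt
The Nr4a1 window held 4 copies and the Fos window 2, while the Dusp6 window held 0. The Junb window held 1, and of the 5 starts listed for Egr2, 3 that overlap each other held 2 copies each. Of all 32851 promoter windows of this length, 17.8% held at least 1 copy, 3.90% held 2 or more and 0.14% held 4 or more. A run of these letters is a description of the sequence and does not show that a factor binds there.

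The values are log2 levels after RMA by the authors, and a step of 1 on that scale is 2-fold. Levels can be compared between arrays for 1 gene but not between genes, because probes differ in how brightly they bind. The medians of the arrays lay between 5.43 and 5.61. Genes were kept if at least 1 array reached 5.54, the level of the median probe set, which 12150 genes and 6 of the 7 members did. Egr2 stayed under it on all 6 arrays, Nr4a1 passed on 1 array and Fos on 3, so these genes were measured near the low end where array differences are usually compressed. Egr3, Junb and Dusp6 passed on all 6 arrays and Egr1 on 5. The names of the 7 genes were supplied with the list of members, and 0 of the 22414 Ensembl IDs matched the gene table at hand. Marker genes of T cells or of other cell types, Notch1, Maml1 and Notch target genes were therefore not checked here. In RNA from a whole culture, fewer cells that express a gene and less of its RNA per cell cannot be told apart.

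**Figure D1:**
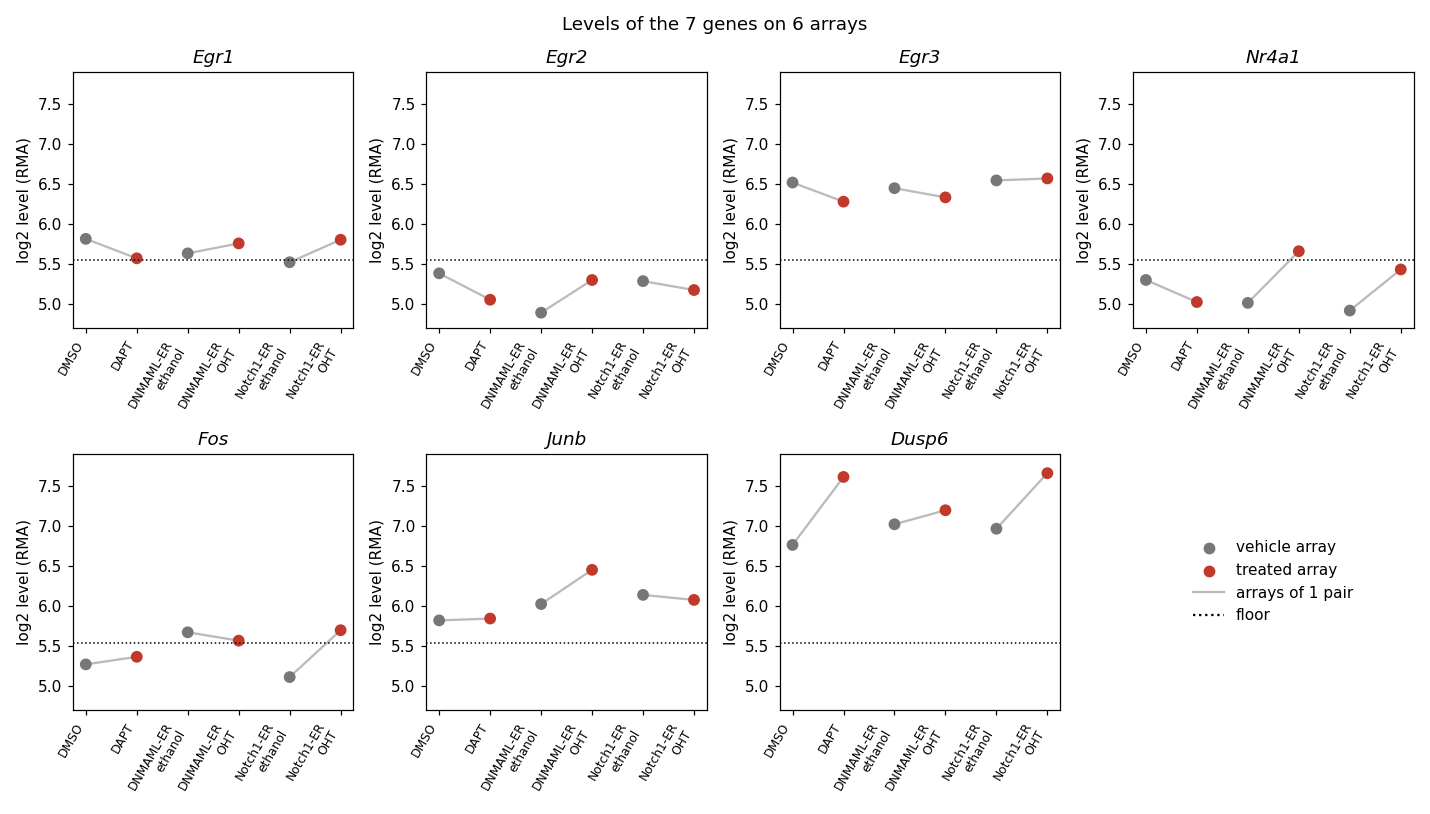
Log2 levels (RMA) of the 7 genes on the 6 arrays, 1 panel per gene, with grey points for vehicle arrays, red points for treated arrays and a line joining the arrays of 1 pair. Each point is 1 array, the dotted line is the floor of 5.54, and only in the Dusp6 panel do all 3 red points lie above all 3 grey points.

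The vehicle arrays give a measure of how far arrays differ without treatment. The ethanol arrays of the DNMAML-ER and Notch1-ER lines differed from each other with a standard deviation across genes of 0.19 and by 1.5-fold in 0.502% of genes upwards and 0.527% downwards. Against DMSO, 5.11% of genes were 1.5-fold higher and 3.66% lower on the DNMAML-ER ethanol array, and 5.15% and 3.61% on the Notch1-ER ethanol array. Between vehicle arrays 0 of the 7 members reached 1.5-fold in any comparison. The ethanol arrays come from lines with different fusions and are not replicates. The DMSO array differs from them in vehicle, time and infection as well.

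Egr1 (ENSMUSG00000038418_at), which binds GC-rich promoters of growth and activation genes, read 5.81 with DMSO and 5.57 with DAPT, while DNMAML-ER cells read 5.63 without OHT (in ethanol) and 5.75 with it, and Notch1-ER cells likewise 5.52 and 5.80. The treated and vehicle arrays overlapped, and the highest and lowest of the 6 were both vehicle arrays. Its differences were -0.24 with DAPT, 0.12 with DNMAML-ER and 0.28 with Notch1-ER. Differences at least as large as the last were found between the ethanol arrays in 11.8% of genes. The whole range of Egr1 over the 6 arrays was 0.29, which 82.1% of genes equalled or exceeded.

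Egr2 (ENSMUSG00000037868_at), a regulator of thymocyte selection and of T cell unresponsiveness, read 5.38 with DMSO and 5.05 with DAPT, while DNMAML-ER cells read 4.89 without and 5.30 with OHT and Notch1-ER cells 5.28 and 5.17. All of these lie under the floor, so no fold is given. The DNMAML-ER difference was 0.41, but the same line's ethanol array was the lowest of the 6 and lay 0.40 below the ethanol array of the Notch1-ER line. The DAPT difference was -0.33 and the Notch1-ER difference -0.11.

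Egr3 (ENSMUSG00000033730_at), which acts with Egr2 in thymocyte proliferation and T cell activation, read 6.51 with DMSO and 6.28 with DAPT, while DNMAML-ER cells read 6.44 without and 6.33 with OHT and Notch1-ER cells 6.54 and 6.57. The differences were -0.24 with DAPT, -0.12 with DNMAML-ER and 0.025 with Notch1-ER. Egr3 was thus lower with both Notch inhibitors and nearly level with Notch1-ER, where a second quantile normalization turned the sign, to -0.012. The DAPT and DNMAML-ER OHT arrays were the lowest of the 6, and the vehicle arrays of Egr3 spanned 0.10, the narrowest vehicle range among the 7 genes. Even so, 43.2% of genes differed by as much as Egr3 in the DAPT pair and 59.3% in the DNMAML-ER pair. The share of genes lower with both inhibitors was not computed.

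Nr4a1 (ENSMUSG00000023034_at), whose transcript follows antigen receptor signal strength in thymocytes, read 5.30 with DMSO and 5.02 with DAPT. DNMAML-ER cells read 5.01 without and 5.66 with OHT, and Notch1-ER cells 4.91 and 5.43. The OHT arrays of both fusion lines were the highest of the 6, and the DMSO array came next. The difference was 0.65 with DNMAML-ER and 0.51 with Notch1-ER, and -0.28 with DAPT. In the DNMAML-ER pair 1.83% of genes were as far or farther upwards, and in the Notch1-ER pair 2.14%. These constructs are meant to move Notch activity in opposite directions, while both pairs share OHT as the treatment, whose own part in Nr4a1 was not tested. The vehicle arrays of Nr4a1 spanned 0.38, and its level passed the floor only on the DNMAML-ER OHT array, where it was highest, so no fold is given and these shares of genes are only a description.

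Fos (ENSMUSG00000021250_at), the classic immediate early partner in AP-1, read 5.27 with DMSO and 5.36 with DAPT. DNMAML-ER cells read 5.67 without and 5.57 with OHT, and Notch1-ER cells 5.11 and 5.70. The Notch1-ER difference was 0.59, at the very edge of the 1.5-fold size and under it after quantile normalization (0.55) or cyclic loess (0.55), and 1.5% of genes were as far or farther upwards. The ethanol array of that line was the lowest of the 6, and the OHT array lay close to the DNMAML-ER ethanol array. Between the 2 ethanol arrays Fos differed by -0.56, nearly as far as within the Notch1-ER pair, and 1.23% of genes differed that much between them. The differences with DAPT and DNMAML-ER were 0.095 and -0.10.

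Junb (ENSMUSG00000052837_at), an AP-1 subunit that dimerises with Fos and restrains c-Jun in several settings, read 5.82 with DMSO and 5.84 with DAPT, while DNMAML-ER cells read 6.02 without and 6.45 with OHT and Notch1-ER cells 6.14 and 6.08. The DNMAML-ER OHT array stood above the other 5, with a difference of 0.43, or 1.35-fold, from its vehicle. In that pair 5.29% of genes were as far or farther upwards. The DAPT difference was 0.023 and the Notch1-ER difference -0.063, both well within the 0.32 that the vehicle arrays spanned. Fos and Junb, though partners in AP-1, were highest on different arrays.

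Dusp6 (ENSMUSG00000019960_at), the feedback phosphatase of ERK, read 6.76 with DMSO and 7.61 with DAPT. DNMAML-ER cells read 7.02 without and 7.20 with OHT, and Notch1-ER cells 6.97 without and 7.66 with it. Every treated array was above every vehicle array, with 0.18 between the lowest treated and the highest vehicle array, and 5.15% of the 12150 genes had no overlap in this direction. The difference was 0.85, or 1.80-fold, with DAPT, 0.70, or 1.62-fold, with Notch1-ER and 0.18, or 1.13-fold, with DNMAML-ER. In the DAPT pair 1.72% of genes were as far or farther upwards and in the Notch1-ER pair 0.922%, whereas in the DNMAML-ER pair 23.0% were. The vehicle arrays of Dusp6 spanned 0.26, less than the DAPT and Notch1-ER differences and more than the DNMAML-ER difference. Being 1.5-fold higher in both the DAPT and the Notch1-ER pair was shared by 0.189% of genes, 23 in number. Dusp6 was singled out for this pattern after its values were seen, so it is a description with no test.

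**Figure D2:**
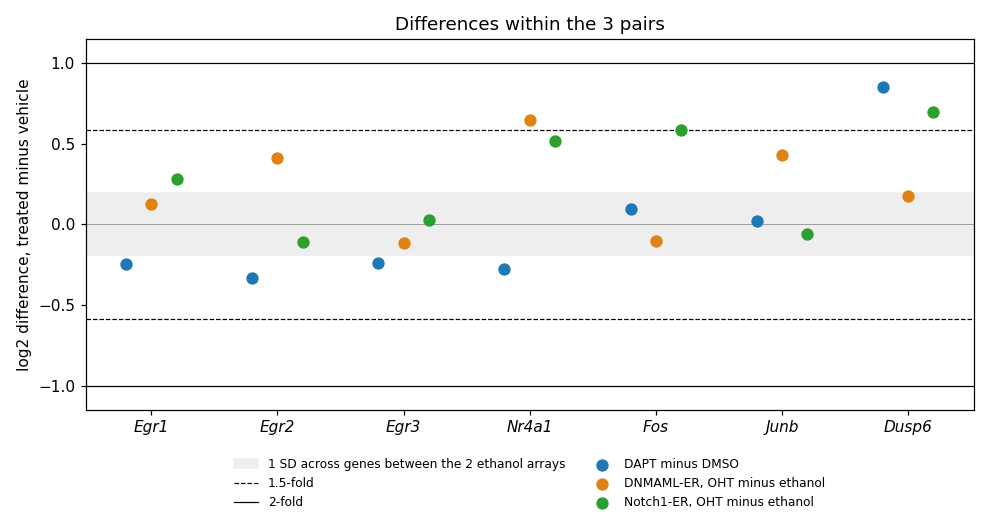
Log2 differences, treated minus vehicle, of the 7 genes in the DAPT, DNMAML-ER and Notch1-ER pairs, with lines at 1.5-fold and 2-fold. Each point is the difference of 2 arrays, and the grey band is ±0.19, 1 SD across genes of the difference between the 2 ethanol arrays. No point reaches 2-fold, and the highest are Dusp6 with DAPT (0.85) and with Notch1-ER (0.70) and Nr4a1 with DNMAML-ER (0.65).

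As a group the 7 genes did not go one way. The 7 include Egr2, which stayed under the floor, whereas the 12150 genes set beside them all passed it. With DAPT 3 were higher and 4 lower, with a median difference of -0.24 beside 0.021 over all 12150 genes, of which 52.7% were higher, and the 3 Egr genes and Nr4a1 made up the lower ones. Quantile normalization brought Egr1 to -0.13, Egr2 to -0.20 and Nr4a1 to -0.14 in the DAPT pair and left Egr3 at -0.24. The Egr1 value of -0.13 was then the median of the 7. With DNMAML-ER 5 were higher and 2 lower, with a median of 0.18 beside 0.010 over all genes, of which 51.8% were higher. With Notch1-ER 5 were higher and 2 lower, with a median of 0.28 beside -0.011 over all genes, of which 47.3% were higher. The 2 members lower in the DNMAML-ER pair were Egr3 and Fos, and in the Notch1-ER pair Egr2 and Junb. On the vehicle arrays, 3 members were higher and 4 lower on each fusion line's ethanol array than on the DMSO array, with medians of -0.071 for DNMAML-ER and -0.098 for Notch1-ER, where 51.4% and 54.1% of all genes were higher. Across the 6 arrays the OHT array of the Notch1-ER line held the highest level of 3 members, Egr3, Fos and Dusp6, and its ethanol array the lowest level of 3, Egr1, Nr4a1 and Fos. The DMSO array held the highest level of 2 and the lowest of 2. The DNMAML-ER OHT array held the highest of 2, and the DAPT and DNMAML-ER ethanol arrays the lowest of 1 each. The same shares over all genes were not computed, so these counts are only a description.

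The members were also compared with each other across arrays. Over the 6 arrays, which share lines and a common normalization, the Pearson r of the 21 pairs of members had a median of 0.21, with 14 above 0 and 7 below. It was highest between Egr1 and Nr4a1 (0.83) and lowest between Egr2 and Fos (-0.53). Nr4a1 passed the floor on 1 array and Egr2 on 0, so both extremes rest on low levels. Fos and Junb had an r of 0.28. Dusp6 had an r of -0.31 with Egr3 and -0.0068 with Egr1. With 6 arrays such values are a description only, and the same figures for other pairs of genes were not computed.

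Genes outside the list were compared with each member by the same measure, among 6071 genes past the floor that varied at least as much as the median gene. The closest to Dusp6 was ENSMUSG00000078247, with an r of 0.95 over 6 arrays and log2 differences of 0.45 with DAPT, -0.0029 with DNMAML-ER and 0.36 with Notch1-ER. The closest to Nr4a1 was ENSMUSG00000057464, with an r of 0.96 and differences of -0.28, 0.55 and 0.76. For the other 5 members the highest r ran from 0.928 (Egr1) to 0.996 (Egr3). Egr1 had 0 genes with an r above 0.95 and Egr3 had 37. Each closest gene is the highest of 6071 values over 6 arrays, so a high r is only a description. How many unrelated genes would reach such an r was not computed. The Nr4a1 match also rests on low levels, since Nr4a1 passed the floor on 1 array. The IDs are printed without names because none could be paired with a symbol.

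The 3 pairs were also read together, to ask whether a member moved with Notch activity whichever way that was altered. Notch activity itself was not measured. Higher and lower Notch activity mean the direction that each treatment is meant to give within its own pair. The DMSO, DNMAML-ER ethanol and Notch1-ER OHT arrays were set against the DAPT, DNMAML-ER OHT and Notch1-ER ethanol arrays by limma over all 12150 genes, with the pair as a block. It called 0 genes (0% of those tested) at an adjusted p of 0.05, while 1026, or 8.44%, had an unadjusted p under 0.05, none of them a member. The count was 2 of 12118 genes with quantile normalization. It was 778 of 12150 with the Notch1-ER pair left out, a fit with 1 residual degree of freedom. None of these was a member, which says little about so short a list. The pairs alter Notch in different ways, so they are not replicates of 1 treatment. For the members the difference between arrays with higher and lower Notch activity, with its moderated SE over 3 pairs, was 0.13 ± 0.13 for Egr1, 0.13 ± 0.11 for Egr3 and 0.048 ± 0.23 for Nr4a1. It was 0.20 ± 0.16 for Fos, -0.17 ± 0.13 for Junb and -0.11 ± 0.26 for Dusp6. Their limma adjusted p-values lay between 0.69 (Junb) and 0.96 (Nr4a1), so no shared movement with Notch activity was detectable with these 6 arrays. Egr2 entered only without the floor, with -0.063 ± 0.15 and a limma adjusted p of 0.93.

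Egr3 and Junb were the 2 tested members whose 3 pairs all had the same sign towards Notch. Egr3 was higher on the array meant to have higher Notch activity in every pair, as were 13.7% of the 12150 genes. Junb was lower on that array in every pair, as were 18%. Its differences were small with DAPT (0.023) and Notch1-ER (-0.063), where 93.6% and 73.2% of genes differed by as much. In 0 of the 7 members did the 3 arrays meant to have higher Notch activity all lie above, or all below, the other 3, which held for 3.76% and 4.84% of genes. This split sets vehicle arrays on both sides, and the Notch1-ER ethanol array is low only against its own OHT array. It therefore also asks for differences between vehicle arrays and says little about Notch. The Egr3 sign in the Notch1-ER pair turned with a second quantile normalization. The Dusp6 value averages differences of opposite sign towards Notch, -0.85 with DAPT, a small -0.18 with DNMAML-ER and 0.70 in the Notch1-ER pair. It also depended on single pairs, being -0.51 ± 0.16 (limma adjusted p 0.091) without the Notch1-ER pair and 0.26 ± 0.22 (limma adjusted p 1) without the DAPT pair. The Nr4a1 value of 0.048 turned to -0.025 after quantile normalization and to -0.035 after cyclic loess.

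**Figure D3:**
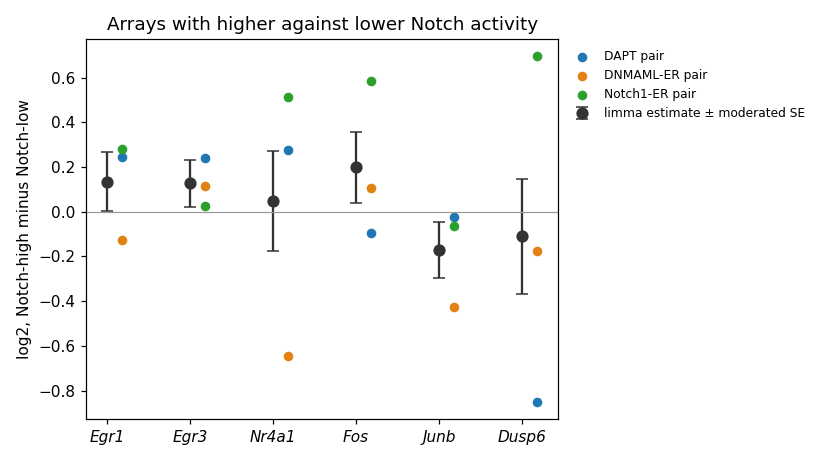
Log2 difference between arrays meant to have higher and lower Notch activity, which was not measured, for the 6 members past the floor. Black points and bars are the limma estimate and its moderated SE over 3 pairs, and coloured points are the 3 pairs, signed towards higher Notch activity. All 6 estimates lie within 0.20 of zero, and for Egr1, Nr4a1, Fos and Dusp6 the pairs lie on both sides of zero.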

How the data were processed

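Total RNA from 6 conditions, 1 array each, was hybridised to Affymetrix arrays after biotin labelling, per the labels' protocols. The authors deposited log2 expression values made with RMA, per the submitters' processing notes. RMA corrects background, sets the probe distributions of the arrays equal and summarises each probe set, and hides differences in total RNA content. The array model, annotation release, genome build and RMA version were not given in the sources used. The 22414 values per array ran from 1.51 to 14.0 with 0 missing, and the number of arrays limits the precision.

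Differences were taken within each pair as treated minus vehicle. The test over 3 pairs used limma 3.58.1 in R 4.3.3 (lmFit, then trended eBayes, two-sided, adjusted by Benjamini-Hochberg over the 12150 genes past the floor, pair as a block, 2 residual degrees of freedom). It was tested on simulated data in which every pair had the same change, larger than any member's estimate. That does not show whether changes of the members' size would be found. The members, lists and tests were chosen with earlier results of these data known. All 7 members are named whatever their values. 8 further gene lists and the cell type markers were not analysed here, since no ID was paired with a symbol. For 2 members the gene with the closest pattern is given by ID. The alternatives were quantile normalization, cyclic loess, centring, other floors and sizes, a fit without block or trend, and leaving out each pair.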

Additional observations from a re-analysis of the deposited data

Results flagged for a closer look

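In 4 of the 7 genes the sign of the OHT difference was not the same in both fusion lines, as in 47% of the 12150 genes. The count therefore sets the 7 genes little apart from the rest. After quantile normalization it was 3, without Egr3. With 1 array per treatment in a line, this contrast between lines was not tested. The Notch1-ER difference minus the DNMAML-ER difference was 0.69 for Fos (0.59 against -0.10), -0.52 for Egr2 (-0.11 against 0.41), -0.49 for Junb (-0.063 against 0.43) and 0.14 for Egr3 (0.025 against -0.12). In Fos the ethanol arrays of the 2 lines themselves differed by -0.56, and in Egr2, which stayed under the floor on every array, by 0.40.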

How the results depend on the processing

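The count of 0 members past 2-fold held in each pair after quantile normalization and cyclic loess. At 1.5-fold it was 1 in the DAPT pair, 1 in the DNMAML-ER pair and 2 in the Notch1-ER pair. Of all genes, 5.12%, 2.41% and 1.51% were higher by that size. The Notch1-ER count was 1 after quantile normalization or cyclic loess, when Fos dropped to 0.55. These shares were not computed under the other normalizations. The DNMAML-ER count was Nr4a1, which passed the floor only on the array where it was highest, so it is only a description. Of the 21 member differences within pairs, 1 turned its sign under quantile normalization (Egr3 with Notch1-ER, -0.012) and 0 under cyclic loess or centring, and the largest move was 0.15. Over the 3 pairs limma called 2 genes with quantile normalization, 1 without the trend, 1 without the floor and 0 with no block for the treatment pair. Leaving out single pairs gave 0 calls, or 778 of 12150 genes where the Notch1-ER pair was dropped. What causes this was not tested. No member passed an adjusted p of 0.05 in any of these fits, the smallest by limma being 0.091 for Dusp6 without the Notch1-ER pair. The Nr4a1 value, 0.048, turned to -0.025 with quantile normalization and -0.035 with cyclic loess, and ran from -0.18 (without the Notch1-ER pair) through -0.066 (without DAPT) to 0.40 (without DNMAML-ER). The Dusp6 value, -0.11, ran from -0.51 without the Notch1-ER pair to 0.26 without the DAPT pair. Chosen after seeing the data, the Dusp6 margin between treated and vehicle arrays was 0.12 with quantile normalization and 0.14 with cyclic loess. It was 0.18 without the DAPT or the Notch1-ER pair and 0.65 without the DNMAML-ER pair. Leaving out a pair cannot lower this margin, so those values are no check of it. No paired analysis by replicate number was possible because each condition has 1 array. Levels near the floor limit Egr2, Nr4a1 and Fos most.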
